A study of Mus musculus with 10 samples.

Results

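Expression of 10 genes of bone morphogenetic protein (BMP) signaling was examined in OP9 stromal cells grown as reaggregates or in flat culture. The genes were chosen by name. They were the ligands *Bmp2* and *Bmp4*, the receptors *Bmpr1a* and *Bmpr2*, the target genes *Id1*, *Id2*, *Id3* and *Id4*, and the inhibitors *Smad6* and *Smad7*. All 10 were found among the 26888 genes listed. Of these, 9 exceeded 0.5 RPM (reads per 1000000 reads on genes) in at least 1 library and could be tested, and *Bmp2* did not.

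The study compared the transcriptomes of OP9 cells in both forms of culture by RNA-seq, because reaggregates support the maturation of hematopoietic stem cells better than flat cultures do. OP9 is labelled as a stromal line of foetal calvaria from the strain (C57BL/6xC3H)F2-op/op, while the paper describes calvaria of newborns. The 6 reaggregates were held for 48 h on 0.8-μm nitrocellulose filters between liquid and gas, 3 of them (2, 4 and 6) with IL-3, for which the labels give 200 μg/μl, and 3 (1, 3 and 5) without it. The 4 flat cultures grew submersed in medium without IL-3. The de Bruijn lab is named in the labels of flat cultures 2 and 4, and the labels name no lab for flat cultures 1 and 3 or for the reaggregates. The methods trace the flat cells to the Medvinsky or de Bruijn group without assigning single cultures. Per the methods, reaggregates were formed from trypsinized cells and were dissociated with collagenase and dispase before RNA extraction. These steps and the form of culture cannot be told apart here. As grounds for pooling the libraries, the methods state that IL-3 did not affect transcription. They also put the variance from cell source on a par with that from passage number, but no library is labelled with a passage number. IL-3 and the named lab tell some libraries of a group apart, but nothing labels libraries alike in both as separate cultures, so p-values measure only the spread between these samples, which may be technical. The libraries held an estimated 7350000 to 9430000 reads on genes in reaggregates and 8260000 to 8700000 in flat cultures. A level of 3 reads corresponded to 0.318 to 0.408 RPM, which covers counting error only.

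The stromal label was checked against marker genes. Of 9 stromal markers, all 9 passed the filter, which asks only for more than 0.5 RPM in 1 library. *Vim* was the most abundant per kb of exon, and *Mcam* was the lowest in RPM, at 1.59 to 9.1 RPM. The summed level of the 9 was 19300 to 26900 RPM in reaggregates and 11700 to 19300 RPM in flat cultures. Of 6 endothelial markers, *Cdh5*, *Kdr*, *Tie1* and *Emcn* were at or under the level of 3 reads in every library, and the 6 summed to at most 1.23 RPM. Of 3 blood cell markers analysed, *Ptprc* and *Cd3e* were listed at 0 in all 10 libraries, and *Itgam* reached at most 0.683 RPM.

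BMPs are secreted ligands that bind type I and type II serine/threonine kinase receptors at the cell surface. The active type I receptor phosphorylates SMAD1, SMAD5 and SMAD9, which enter the nucleus with SMAD4 and switch on target genes, among them the *Id* genes and the feedback inhibitors *Smad6* and *Smad7*. In the embryonic aorta-gonad-mesonephros region, BMP4 and its extracellular modulators are known regulators of the stroma in which hematopoietic stem cells form.

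Of the 9 genes tested, *Bmp4*, *Id1*, *Id2* and *Id4* were lower in reaggregates than in flat cultures. *Bmp4* and *Id1* differed most clearly, whereas the calls of *Id2* and *Id4* depended on which libraries were compared. *Bmpr1a*, *Bmpr2*, *Id3*, *Smad6* and *Smad7* did not pass the test. The test was limma on log2(RPM + 0.5) over 16933 genes, and a gene counted as called if it changed 2-fold or more with an adjusted p (Benjamini-Hochberg) no higher than 0.05. By this rule 4 of 9 genes were down-regulated, where 6.53% of all genes tested were, and 0 of 9 were up-regulated, where 7.32% were. In the same 4 genes every reaggregate lay below every flat culture, as in 11.4% of all genes tested. None of the 9 had every reaggregate above every flat culture, as 7.8% of all genes did. The median log2 fold change was −0.89 over the 9 genes and 0.04 over all genes tested. Over the 9 it was −0.45 against flat cultures 1 and 3 alone and −1.35 against flat cultures 2 and 4 alone. Because 0.5 is added to every value, changes of genes with low RPM are understated. In bulk RNA, fewer cells expressing a gene and less of its RNA per cell cannot be told apart.

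*Bmp2*, which encodes a ligand closely related to BMP4, spans bases 133377895 to 133388621 of chromosome 2 (plus strand; NCBIM37, mm9). It was listed at 0 in all 10 libraries, which allows up to 0.408 RPM, the level of 3 reads in the shallowest library, provided that the gene was counted. A lack of *Bmp2* RNA and a gap in the authors' counting of this gene cannot be told apart.

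*Bmp4* encodes the BMP ligand best known from the stroma around the dorsal aorta, and spans bases 47003195 to 47010344 of chromosome 14 (minus strand). It was at 27.5, 25.6, 23.3, 17.2, 29.1 and 24.8 RPM in reaggregates 1 to 6 and at 83.8, 151, 121 and 106 RPM in flat cultures 1 to 4. The highest reaggregate lay far below the lowest flat culture, and the groups did not overlap. Reaggregates averaged 24.6 ± 4.15 RPM (SD, n = 6) and flat cultures 115 ± 28.2 RPM (SD, n = 4), which gave a log2 fold change of −2.19 (SE 0.19, limma, Benjamini-Hochberg adjusted p = 6.621e-05). An exact two-sided permutation test gave p = 0.00476, the smallest that 6 against 4 libraries allow. The log2 fold change of *Bmp4* was −2.03 against flat cultures 1 and 3 alone (limma, Benjamini-Hochberg adjusted p = 0.000708) and −2.36 against flat cultures 2 and 4 alone (adjusted p = 2.674e-05). With each library left out in turn it stayed between −2.34 and −2.06. Exons of *Bmp4* overlap *Gm15217* on the opposite strand by 89 bases, and because the sources do not state that strand was used in counting, reads from this stretch cannot be told apart.

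*Bmpr1a* encodes a type I receptor, the kinase that phosphorylates the SMADs, and spans bases 35223920 to 35316527 of chromosome 14 (minus strand). It was at 187, 183, 185, 190, 210 and 245 RPM in reaggregates 1 to 6 and at 209, 92.1, 164 and 79.3 RPM in flat cultures 1 to 4. The reaggregates were close to each other, flat cultures 2 and 4 were low, and flat culture 1 lay among the reaggregates, so the groups overlapped. Reaggregates averaged 200 ± 24.1 RPM (SD, n = 6) and flat cultures 136 ± 61.3 RPM (SD, n = 4), and the log2 fold change of 0.66 did not pass the test (SE 0.25, limma, Benjamini-Hochberg adjusted p = 0.06537, exact permutation p = 0.0333). Against flat cultures 2 and 4 alone *Bmpr1a* was up-regulated in reaggregates, by a log2 fold change of 1.21 (limma, Benjamini-Hochberg adjusted p = 0.0001403). Against flat cultures 1 and 3 alone the value was 0.10 (adjusted p = 0.6676). Its exons overlap *Gm17110* on the opposite strand by 290 bases.

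*Bmpr2* encodes a type II receptor, which activates the type I receptor, and spans bases 59821481 to 59927703 of chromosome 1 (plus strand). It was at 39.4, 39, 33.9, 43.5, 45.5 and 44.2 RPM in reaggregates 1 to 6 and at 20.1, 44.4, 27.9 and 25.3 RPM in flat cultures 1 to 4. Flat culture 2 lay among the reaggregates and the other flat cultures below them. Reaggregates averaged 40.9 ± 4.33 RPM (SD, n = 6) and flat cultures 29.4 ± 10.5 RPM (SD, n = 4), and the log2 fold change of 0.52 did not pass the test (SE 0.20, limma, Benjamini-Hochberg adjusted p = 0.06876, exact permutation p = 0.0333). It was 0.77 against flat cultures 1 and 3 alone (adjusted p = 0.01734), under a 2-fold change, and 0.28 against flat cultures 2 and 4 alone (adjusted p = 0.2895).

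The ID proteins are helix-loop-helix proteins without a DNA-binding region, which hold E proteins and related factors away from DNA. *Id1* spans bases 152561987 to 152563146 of chromosome 2 (plus strand). It was at 78, 56.4, 61.1, 69.1, 58.6 and 52.3 RPM in reaggregates 1 to 6 and at 198, 149, 156 and 169 RPM in flat cultures 1 to 4. All reaggregates were low, all flat cultures were high, and the groups did not overlap. Reaggregates averaged 62.6 ± 9.4 RPM (SD, n = 6) and flat cultures 168 ± 21.6 RPM (SD, n = 4), which gave a log2 fold change of −1.42 (SE 0.15, limma, Benjamini-Hochberg adjusted p = 0.0001329, exact permutation p = 0.00476). The difference was of similar size against each pair of flat cultures, at −1.50 for flat cultures 1 and 3 (adjusted p = 0.00096) and −1.35 for flat cultures 2 and 4 (adjusted p = 0.0001524).

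*Id2* spans bases 25778666 to 25780957 of chromosome 12 (minus strand). It was at 67.7, 60.2, 82, 90, 33.1 and 42.2 RPM in reaggregates 1 to 6 and at 185, 96.7, 116 and 117 RPM in flat cultures 1 to 4. Reaggregates 5 and 6 were lowest and flat culture 1 highest, and reaggregate 4 came close to flat culture 2 without an overlap of the groups. Reaggregates averaged 62.5 ± 22.1 RPM (SD, n = 6) and flat cultures 129 ± 38.7 RPM (SD, n = 4), which gave a log2 fold change of −1.08 (SE 0.29, limma, Benjamini-Hochberg adjusted p = 0.01726, exact permutation p = 0.00952). This change lay just past 2-fold. It fell short of 2-fold without reaggregate 5 (−0.91, limma adjusted p = 0.02444), without reaggregate 6 (−0.98, adjusted p = 0.03101) and without flat culture 1 (−0.89, adjusted p = 0.04914). The log2 fold change of *Id2* was −1.31 against flat cultures 1 and 3 alone (adjusted p = 0.04552) and −0.85 against flat cultures 2 and 4 alone (adjusted p = 0.06813).

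*Id3* spans bases 135699412 to 135701670 of chromosome 4 (plus strand). It was at 396, 359, 273, 259, 301 and 292 RPM in reaggregates 1 to 6 and at 500, 291, 358 and 350 RPM in flat cultures 1 to 4. Flat culture 1 was highest, and the other flat cultures lay within the range of the reaggregates. Reaggregates averaged 313 ± 53.1 RPM (SD, n = 6) and flat cultures 375 ± 88.7 RPM (SD, n = 4), and the log2 fold change of −0.25 did not pass the test (SE 0.18, limma, Benjamini-Hochberg adjusted p = 0.3102, exact permutation p = 0.219). It was −0.45 against flat cultures 1 and 3 alone and −0.04 against flat cultures 2 and 4 alone.

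*Id4* spans bases 48356796 to 48359405 of chromosome 13 (plus strand). It was at 0.594, 0.136, 0.805, 0.459, 0.217 and 0.675 RPM in reaggregates 1 to 6 and at 1.24, 6.78, 1.25 and 8.17 RPM in flat cultures 1 to 4. Flat cultures 2 and 4 were far above the rest, flat cultures 1 and 3 were just above the highest reaggregate, and reaggregates 2 and 5 were under the level of 3 reads. These levels correspond to an estimated 1 to 7.39 reads in reaggregates and 10.4 to 67.5 reads in flat cultures. Reaggregates averaged 0.481 ± 0.263 RPM (SD, n = 6) and flat cultures 4.36 ± 3.64 RPM (SD, n = 4), which gave a log2 fold change of −1.97 (SE 0.48, limma, Benjamini-Hochberg adjusted p = 0.01135, exact permutation p = 0.00476). The flat mean was 9.06-fold the reaggregate mean in RPM and 3.92-fold on the scale with the pseudocount. *Id4* was down-regulated against flat cultures 2 and 4 alone, by −3.06 (adjusted p = 5.384e-05), and did not pass the test against flat cultures 1 and 3 alone, at −0.88 (adjusted p = 0.07008). Its exons overlap the noncoding gene *A330033J07Rik* on the opposite strand by 171 bases.

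*Smad6* encodes an inhibitory SMAD that acts mainly on BMP receptors, and spans bases 63800953 to 63869866 of chromosome 9 (minus strand). It was at 27.6, 25.9, 24.8, 26.2, 15.1 and 16.4 RPM in reaggregates 1 to 6 and at 14.7, 85.7, 30.8 and 71.1 RPM in flat cultures 1 to 4. Flat cultures 2 and 4 were high, flat culture 3 lay just above the reaggregates, and flat culture 1 lay below them. Reaggregates averaged 22.7 ± 5.45 RPM (SD, n = 6) and flat cultures 50.6 ± 33.3 RPM (SD, n = 4), and the log2 fold change of −0.88 did not pass the test (SE 0.43, limma, Benjamini-Hochberg adjusted p = 0.1356, exact permutation p = 0.0905). Without flat culture 1 *Smad6* was down-regulated in reaggregates (−1.36, limma adjusted p = 0.01533). Against flat cultures 2 and 4 alone it was down-regulated by −1.80 (adjusted p = 0.0003929), and against flat cultures 1 and 3 alone the log2 fold change was 0.05 (adjusted p = 0.9315).

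*Smad7* encodes the inhibitory SMAD that acts on BMP and TGF-β receptors alike, and spans bases 75527183 to 75555589 of chromosome 18 (plus strand). It was at 42.7, 42.1, 36.9, 35.5, 22.7 and 23.9 RPM in reaggregates 1 to 6 and at 27.3, 110, 39.6 and 121 RPM in flat cultures 1 to 4. As for *Smad6*, flat cultures 2 and 4 were high, while flat cultures 1 and 3 lay within the range of the reaggregates. Reaggregates averaged 34 ± 8.74 RPM (SD, n = 6) and flat cultures 74.5 ± 47.8 RPM (SD, n = 4), and the log2 fold change of −0.89 did not pass the test (SE 0.40, limma, Benjamini-Hochberg adjusted p = 0.1087, exact permutation p = 0.0905). Without flat culture 1 *Smad7* was down-regulated (−1.28, limma adjusted p = 0.02616). Against flat cultures 2 and 4 alone it was down-regulated by −1.79 (adjusted p = 0.0004415), and against flat cultures 1 and 3 alone the log2 fold change was 0.00 (adjusted p = 0.9969).

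**Figure D1:**
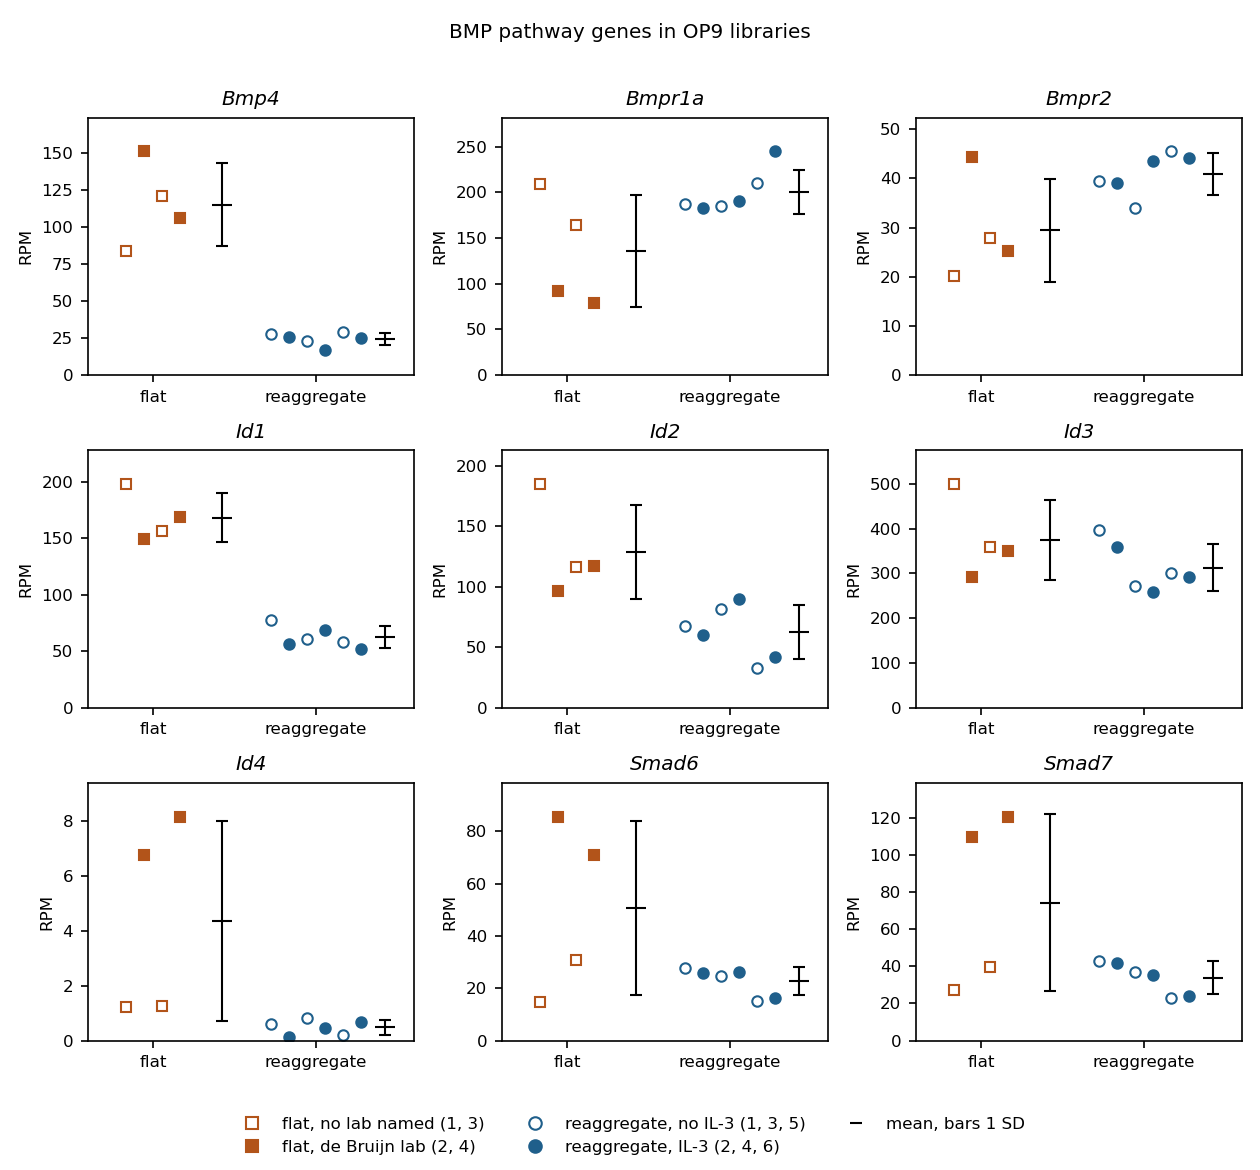
Level in RPM (vertical axes, linear from 0) of the 9 genes tested, in 4 flat cultures (squares, filled for flat cultures 2 and 4 of the de Bruijn lab) and 6 reaggregates (circles, filled with IL-3). Cross bars give the mean and 1 SD of each group, and in *Bmp4*, *Id1*, *Id2* and *Id4* every circle lies below every square.

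The flat cultures were also compared by the lab named in their labels, flat cultures 2 and 4 against flat cultures 1 and 3. *Id4* was higher in the cells of the de Bruijn lab, at 6.78 and 8.17 RPM against 1.24 and 1.25 RPM, a log2 difference of 2.19 (SE 0.34, limma, Benjamini-Hochberg adjusted p = 0.0303). *Smad7* was higher as well, at 110 and 121 RPM against 27.3 and 39.6 RPM, a log2 difference of 1.80 (SE 0.30, adjusted p = 0.03487). *Smad6* differed by a similar amount, 1.85 (SE 0.41, adjusted p = 0.06977), and *Bmpr1a* in the opposite direction, by −1.11 (SE 0.28, adjusted p = 0.0878), and neither passed the test. In *Bmp4*, *Bmpr2*, *Id1* and *Id2* the values of the pairs overlapped, and in *Id3* the 2 cultures of the de Bruijn lab lay below the other 2. Thus 2 of 9 genes were called, where 5.7% of all genes tested were, and the median log2 difference over all genes was −0.17. An exact test of 2 against 2 libraries cannot give p below 0.333. With any 1 of the flat cultures left out, a setting in which the lone culture of a pair is assumed to vary like the others, 0 genes were called. *Id4* then differed by 2.31, 2.06, 2.18 and 2.19 and *Smad7* by 1.86, 1.73, 1.53 and 2.06 without flat culture 2, 4, 1 or 3, with limma adjusted p of 0.1083 to 0.3232. Because the lab behind the reaggregates is not labelled, cell source and form of culture cannot be told apart in any of the 9 genes. *Bmp4* and *Id1* were called against either pair of flat cultures, and *Id2* only against flat cultures 1 and 3. *Id4*, *Smad6*, *Smad7* and *Bmpr1a* were called only against flat cultures 2 and 4.

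**Figure D2:**
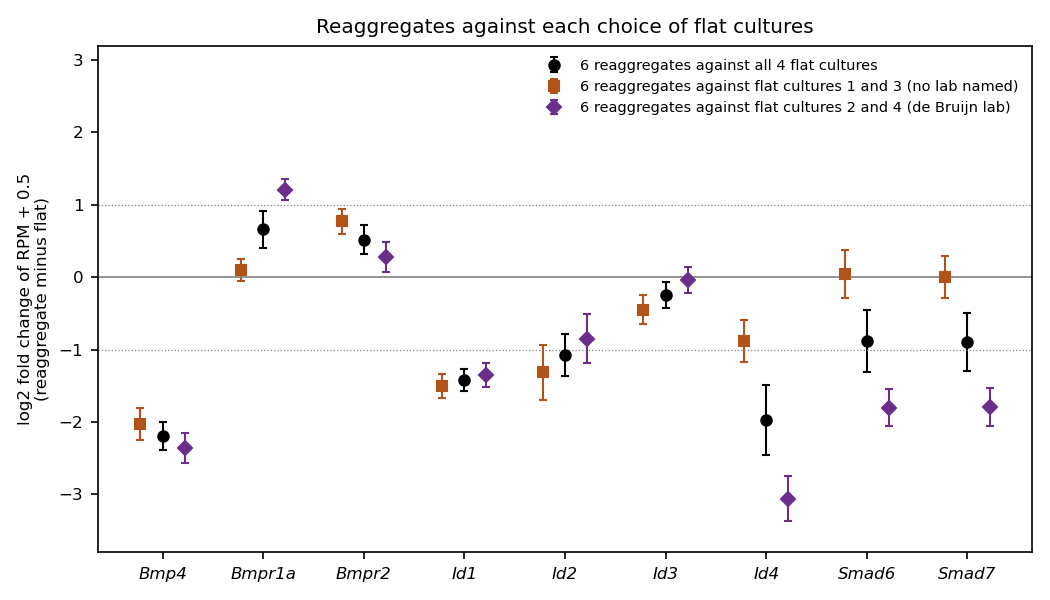
Log2 fold change of RPM + 0.5, reaggregate minus flat (vertical axis), for 9 genes, with 6 reaggregates set against all 4 flat cultures (circles), flat cultures 1 and 3 (squares) or flat cultures 2 and 4 (diamonds). Bars are 1 SE and dotted lines mark a 2-fold change, which *Bmp4* and *Id1* passed in all 3 comparisons, whereas *Smad6* and *Smad7* were at 0.05 and 0.00 against flat cultures 1 and 3.

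IL-3 was compared within the reaggregates, 3 with against 3 without it. None of the 9 genes was called, nor was any of the 16933 genes tested (0%). At an unadjusted limma p of at most 0.05 there were 68 genes and 0 of the 9. That is far below a share of 0.05, which tests without any effect would give. This fit ignored which reaggregates were consecutive, so differences between such pairs counted as spread. No lack of an IL-3 effect is read from these counts. The log2 differences of the 9 genes ran from −0.25 for *Bmp4* to 0.10 for *Bmpr2* and *Id2*. *Bmp4* was at 25.6, 17.2 and 24.8 RPM with IL-3 and at 27.5, 23.3 and 29.1 RPM without it, so the groups overlapped (exact permutation p = 0.3). Between consecutive reaggregates (1 and 2, 3 and 4, 5 and 6) *Bmp4* was lower with IL-3 each time, as was *Id3*. In the other genes tested the direction differed between the pairs. Agreement over 3 pairs is common by chance, and its share over all genes was not counted, so no effect is read from it. With these pairs as a block *Bmp4* differed by −0.25 and *Id3* by −0.09 (limma, Benjamini-Hochberg adjusted p = 0.9818 for each), and 0 genes were called. Without reaggregate 4 the difference in *Bmp4* was −0.07, in a fit that ignored the pairs and kept reaggregate 3. The smallest p that 3 against 3 libraries allow is 0.1.

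Consecutive reaggregates, 1 without and 1 with IL-3 in each pair, were close to each other in some of these genes and not in others. The ratio of the higher to the lower value was 1.01, 1.04 and 1.05 within the pairs 1 and 2, 3 and 4, and 5 and 6 for *Smad7*, and 1.88 over all 6 reaggregates. For *Smad6* it was 1.07, 1.06 and 1.09 within the pairs and 1.83 over all 6. For *Id2* it was 1.12, 1.1 and 1.27 within the pairs and 2.72 over all 6. *Id4* was not close within pairs, at 4.37, 1.75 and 3.11 against 5.92 over all 6, nor was *Id1* in the first pair, at 1.38 against 1.49 over all 6. *Bmpr2* at 1.28 within the pair 3 and 4 came near its ratio over all 6, 1.34. For *Bmp4* the ratio was 1.07, 1.35 and 1.17 within the pairs and 1.69 over all 6. The reaggregates may still count as fewer than 6 independent samples. With each pair averaged to give 3 samples, *Bmp4* (−2.19, limma, Benjamini-Hochberg adjusted p = 0.00889) and *Id1* (−1.41, adjusted p = 0.009943) were still called. *Id2* (−1.07, adjusted p = 0.08902) and *Id4* (−1.93, adjusted p = 0.1006) were not.

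Levels were set in order after division by exon length, in RPM per kb. The lengths came from another annotation than the one used by the authors for counting, so the order between genes is approximate. In reaggregates *Id3* was highest, at 175 ± 29.7 RPM per kb (SD, n = 6), above *Id1* in every library. *Id1* and *Id2* followed at 54 and 49.2, and their ranges overlapped, as did those of *Id2* and *Bmpr1a*, which was at 31.5. *Bmpr2* and *Bmp4*, at 11.7 and 11.1, did not differ beyond their spread, nor did *Smad7* and *Smad6*, at 7.51 and 7.23. *Id4* was at 0.29 RPM per kb, below *Smad6* in all 6 libraries. In flat cultures *Id3*, at 209 ± 49.5 RPM per kb (SD, n = 4), was above *Id1*, at 145, in all 4 libraries, and *Id1* was above *Id2*, at 101. *Bmp4* came next at 51.9 RPM per kb, with a range separate from that of *Id2* above it and *Bmpr1a* below it. *Bmpr1a*, *Smad7*, *Smad6* and *Bmpr2* had overlapping ranges at 21.4, 16.5, 16.1 and 8.39 RPM per kb, and *Id4*, at 2.63, lay below *Bmpr2* in all 4 libraries. *Bmp4* thus lay above *Bmpr1a* in every flat culture and below it in every reaggregate.

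Marker lists moved along with some of these genes, and their part in the differences was not tested. All 13 of 13 cell cycle genes were down-regulated in reaggregates, with a median log2 fold change of −2.28. *Cdc2a* was the most abundant of the 13 per kb of exon over all 10 libraries, but in reaggregates *Mcm2* averaged more (13.1 against 9.95 RPM per kb). Their summed level was 311, 322, 258, 290, 320 and 388 RPM for reaggregates 1 to 6, against 2170, 822, 1730 and 1070 RPM for flat cultures 1 to 4, so that the groups did not overlap, as for *Bmp4*, *Id1*, *Id2* and *Id4*. The call of *Mki67* among them was lost without flat culture 1 (−1.36, limma adjusted p = 0.06686) and against flat cultures 2 and 4 alone (−0.52, adjusted p = 0.09833), where 11 of the 13 were called. Of 6 adipocyte markers, 3 were down-regulated in reaggregates and 3 were higher in the flat cultures of the de Bruijn lab. Against flat cultures 1 and 3 alone, with consecutive reaggregates averaged or without the filter, 0 were called down-regulated. The 6 markers summed to 346, 347, 626, 691, 255 and 270 RPM for reaggregates 1 to 6, against 370, 1380, 528 and 1460 RPM for flat cultures 1 to 4. *Fabp4*, the most abundant per kb of exon, was at 435 and 711 RPM in flat cultures 2 and 4 and at 19.1 to 47.2 RPM in the other 8 libraries. Flat cultures 2 and 4 were thus high in this sum as they were in *Id4*, *Smad6* and *Smad7*. Of 7 osteoblast markers, with *Spp1* the most abundant per kb, 0 were called between reaggregates and flat cultures, and 1 was higher and 1 lower in the flat cultures of the de Bruijn lab. Among the stromal markers 5 were up-regulated and 1 was down-regulated. With consecutive reaggregates averaged these counts were 2 and 0, and without the filter 3 were up-regulated. Of 9 immediate early genes 6 were up-regulated, with a median of 2.53, and their sum was 1980 to 2520 RPM in reaggregates and 256, 416, 2180 and 527 RPM in flat cultures 1 to 4. Among the 6 *Fos* lost its call without flat culture 1 (limma adjusted p = 0.06665) or flat culture 4 (1.94, adjusted p = 0.08308), and only 3 of the 6 were called against flat cultures 1 and 3 alone or with consecutive reaggregates averaged. *Egr1*, the most abundant of the 9 per kb over all 10 libraries, was not called (0.90, adjusted p = 0.1398). It was up-regulated without flat culture 3 (1.48, adjusted p = 0.001503). In reaggregates *Nr4a1* averaged more than *Egr1*, at 218 against 190 RPM per kb. In the sum flat culture 3 lay among the reaggregates, with *Egr1* at 1030 RPM. Of the 6 genes called, it lay above all reaggregates in *Fos* and among them in *Fosb* and *Egr2*. It lay below all reaggregates in *Egr3*, *Nr4a1* and *Atf3*.

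Other genes of the pathway were counted from lists of ligands, receptors, SMADs, regulators, E proteins and targets. Over all genes tested 7.32% were up-regulated and 6.53% down-regulated, and a count of 1 in lists this short cannot be told apart from these shares. Of 11 other BMP ligands 6 were at or under the level of 3 reads in every library and 5 were tested, with 1 up-regulated. That gene, *Bmp8a*, averaged 1.04 ± 0.69 in reaggregates (SD, n = 6) and 0.159 ± 0.245 RPM in flat cultures (SD, n = 4), a change of 1.16 on the log2 scale (limma, Benjamini-Hochberg adjusted p = 0.03439). The call of *Bmp8a* was lost without reaggregate 1, 2, 5 or 6 or flat culture 1, 2 or 4, with values of 0.98 to 1.17 and adjusted p of 0.05597 to 0.1031. *Gdf7*, the most abundant of these ligands per kb, differed by 0.71 and did not pass the test (adjusted p = 0.1314). Against flat cultures 2 and 4 alone *Gdf7* was up-regulated (1.36, limma adjusted p = 0.004351). No ligand of the list exceeded 2.31 RPM in any library. Of 11 other receptors and co-receptors, with a median log2 fold change of 0.40, 1 was up-regulated. It was *Acvr1*, a type I receptor, with means of 131 ± 7.97 in reaggregates (SD, n = 6) and 64.3 ± 20.1 RPM in flat cultures (SD, n = 4) (1.07, limma, Benjamini-Hochberg adjusted p = 0.001998). Without flat culture 4 its change fell short of 2-fold (0.89, adjusted p = 0.004516), as it did against flat cultures 1 and 3 alone (0.82). With consecutive reaggregates averaged *Acvr1* was not called (adjusted p = 0.0552).

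Of 6 other SMADs, with a median log2 fold change of 0.28, 1 was called. *Smad9*, which encodes a SMAD that BMP receptors phosphorylate, was down-regulated, with means of 6.74 ± 1.96 in reaggregates (SD, n = 6) and 17.6 ± 6.95 RPM in flat cultures (SD, n = 4; −1.29, limma, Benjamini-Hochberg adjusted p = 0.008584). Every reaggregate was below every flat culture, but the call was lost against flat cultures 1 and 3 alone (−0.83, adjusted p = 0.09421) and with consecutive reaggregates averaged (−1.28, adjusted p = 0.07571). *Smad4*, the shared partner and the most abundant of the list per kb, did not pass the test (0.33, adjusted p = 0.05549). Of 9 intracellular SMAD regulators, with a median of 0.51, 1 was up-regulated. It was *Ski*, a corepressor of SMAD-dependent transcription, with means of 224 ± 30.3 in reaggregates (SD, n = 6) and 103 ± 40.6 RPM in flat cultures (SD, n = 4; limma, Benjamini-Hochberg adjusted p = 0.004364). Without flat culture 1 the change of *Ski* was 0.98 (adjusted p = 0.0102), and with consecutive reaggregates averaged it was not called (adjusted p = 0.06888). *Tob1*, the most abundant regulator per kb, differed by 0.46 (adjusted p = 0.1527).

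Of 3 E proteins, the binding partners of the ID proteins, 1 was up-regulated. *Tcf4* was at 286, 301, 352, 354, 260 and 280 RPM in reaggregates 1 to 6 and at 84.8, 62.4, 181 and 48.1 RPM in flat cultures 1 to 4. Every reaggregate was above every flat culture, the reverse of *Id1*, *Id2* and *Id4* in the same libraries. The log2 fold change of *Tcf4* was 1.87 (SE 0.30, limma, Benjamini-Hochberg adjusted p = 0.001405), and that of *Tcf3*, the most abundant E protein gene per kb, was 0.44 (adjusted p = 0.1212). Of 9 other BMP target genes 7 were tested, with a median of 0.04, and 1 was down-regulated. *Atoh8*, which encodes a basic helix-loop-helix factor, was at 32.8, 33.2, 47.8, 53.4, 20.1 and 18.4 RPM in reaggregates 1 to 6 and at 55.6, 339, 79.5 and 278 RPM in flat cultures 1 to 4. Like *Id4*, it was highest in flat cultures 2 and 4, and its groups did not overlap (−2.15, SE 0.51, limma, Benjamini-Hochberg adjusted p = 0.01018). Between the pairs of flat cultures *Atoh8* differed by 2.20 (adjusted p = 0.02199). Its call in reaggregates was lost against flat cultures 1 and 3 alone (−1.05, adjusted p = 0.1054) and with consecutive reaggregates averaged (adjusted p = 0.08902). Of 14 extracellular antagonists 9 were tested, with a median of 0.66. Among them *Bmper*, *Fstl1* and *Twsg1* were up-regulated (2.36, 1.05 and 1.05) and *Chrdl1* and *Fstl3* down-regulated (−1.03 and −1.09). The list name does not fix a direction of action. For BMPER the paper cites reports of promoting BMP4 at low concentrations and opposing it at high ones. *Chrdl1* rested on low values, at 0.128 to 0.384 RPM in reaggregates, about 3 reads or fewer, and at 0.806, 2.74, 0.359 and 0.972 RPM in flat cultures 1 to 4. Without flat culture 2 or flat culture 4 the calls of *Chrdl1* (−0.67 and −1.04), *Fstl1* (0.78 and 0.81), *Fstl3* (−0.85 and −0.97) and *Twsg1* (0.98 and 0.84) were lost, and those of *Chrdl1*, *Fstl1* and *Fstl3* also without some single reaggregates.

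The genes most like each of the 9 across the 10 libraries were sought among 11661 genes with a mean of at least 5 RPM, by Pearson's r of log2(RPM + 0.5). These values describe 10 libraries that share culture, cell source and pairs of close reaggregates. For *Bmp4* they were *Shmt2* (0.983), *E2f7* (0.980) and *Fancd2* (0.979), and for *Id1* they were *Tubb2c* (0.983), *Gsg2* (0.982) and *Ckap2* (0.980). For *Id2* they were *Tm7sf2* (0.963), *Cebpg* (0.960) and *Impa2* (0.958), and for *Id3* they were *Trmt11* (0.945), *Tsen54* (0.943) and *Murc* (0.917). *Id4* was close to *Tnfrsf11b* (0.991) and *Dio3* (0.975). *Dio3* averaged 0.337 RPM in reaggregates and 28.6 RPM in flat cultures, so it passed the limit of 5 RPM only through the flat cultures. The same held for *Tnfrsf11b*, *E2f7*, *Fancd2* and *Gsg2*, which averaged under 5 RPM in reaggregates. No likeness within reaggregates is read from these genes. For *Bmpr1a* they were *Dazap2* (0.988), *Ifngr2* (0.987) and *Sord* (0.984), and for *Bmpr2* they were *Pld3* (0.968), *Abhd2* (0.962) and *Tpp1* (0.951). *Smad6* was closest to *Tns3* (0.988), *Mical2* (0.984) and *Smad7* (0.980), and *Smad7* to *Bcar3* (0.991), *Myl9* (0.989) and *Smad6* (0.980). *Smad6* and *Smad7* therefore each appeared among the 3 genes most like the other.

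Promoters of 300 bases, from 250 before to 50 after the start of the gene, were taken from RefSeq (GRCm38.p6) and matched 7 of the 10 genes. *Bmp2*, *Id1* and *Smad7* had no entry in the set of promoters used, which does not show that RefSeq lacks them. Both strands were searched for GGCGCC, a GC-rich motif bound by SMAD1 and SMAD5, and for GTCTAGAC, the palindromic SMAD binding element. Each motif reads the same on both strands, and the motifs do not overlap each other. GGCGCC was found 1 time each in *Bmpr1a*, *Bmpr2*, *Id2* and *Id4*, and in 11.9% of all 32851 promoters. GTCTAGAC was found 1 time in *Smad6* and in 0.213% of all promoters. GC content was 59.3% to 79.3% in the 7 promoters, and its median over all promoters was 52.7%. A match describes these letters and does not show that a factor binds. Promoters are shown for the *Id* genes called in reaggregates that hold a motif and for *Smad6*, which holds the rarer motif, with the motif in capitals: *Id2* (chr12:25096043-25096342, minus strand), *Id4* (chr13:48260866-48261165, plus strand) and *Smad6* (chr9:64022010-64022309, minus strand).
Id2: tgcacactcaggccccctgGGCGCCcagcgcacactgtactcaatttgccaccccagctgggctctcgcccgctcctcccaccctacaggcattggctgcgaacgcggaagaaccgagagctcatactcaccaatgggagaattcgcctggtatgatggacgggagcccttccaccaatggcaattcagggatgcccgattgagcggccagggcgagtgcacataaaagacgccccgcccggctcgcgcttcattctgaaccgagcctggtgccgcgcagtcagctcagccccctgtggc
Id4: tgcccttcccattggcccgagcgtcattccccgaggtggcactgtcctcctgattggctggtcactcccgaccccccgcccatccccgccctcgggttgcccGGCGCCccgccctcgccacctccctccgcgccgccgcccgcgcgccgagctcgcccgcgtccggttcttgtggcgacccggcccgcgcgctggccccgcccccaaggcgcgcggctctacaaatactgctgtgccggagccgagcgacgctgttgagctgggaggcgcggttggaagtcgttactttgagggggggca
Smad6: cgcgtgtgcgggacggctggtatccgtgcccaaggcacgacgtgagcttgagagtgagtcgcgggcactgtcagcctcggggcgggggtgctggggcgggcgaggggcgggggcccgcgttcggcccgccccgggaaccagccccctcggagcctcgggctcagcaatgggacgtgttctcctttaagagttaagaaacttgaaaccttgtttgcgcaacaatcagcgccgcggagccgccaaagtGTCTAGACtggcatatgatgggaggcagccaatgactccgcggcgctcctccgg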

How the data were processed

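RNA-seq libraries of 10 OP9 samples were prepared with a TruSeq kit. Per the submitters' processing notes and the methods, the authors aligned reads with TopHat 1.2.0 to NCBIM37 (mm9). Multi-mapped reads were divided among genes. The deposited table gives RPM (reads per 1000000 reads on genes) by gene and library. The authors' log2 fold change and adjusted p-value columns, from DESeq (2011-03-15), hold their comparison of reaggregates with flat cultures and were not used.

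The most frequent nonzero RPM of a library was taken to be 1 read, which put depth at 7350000 to 9430000 reads, and 3 reads were the smallest level read as detected. Up to 10 RPM, 65.1% to 67.5% of values lay within 0.02 reads or 1% of a whole number of reads, and the others were fractions, so no count test was run. Genes above 0.5 RPM in at least 1 library were compared on log2(RPM + 0.5) with limma 3.58.1 in R 4.3.3 (empirical Bayes with a mean-variance trend), and p-values were adjusted by the Benjamini-Hochberg procedure over all genes tested. The script was tested on simulated data. Single genes were also compared by exact two-sided permutation. Fits used the libraries of each comparison and no covariates. Alternatives were another pseudocount, filter or scaling, each library left out, subsets of the libraries, averaged or blocked reaggregates, and the replicate number as a block. Exon lengths, over all annotated exons of a gene, and coordinates came from GENCODE vM1 on NCBIM37, whereas the authors counted reads on Ensembl genes. Permutation tests ran in Python 3.11.15 with scipy 1.17.1, and matplotlib 3.10.9 drew the figures.

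Named genes were the 10 chosen, each gene of a pathway list that was called or was the most abundant per kb of exon, and the 3 genes most like each of the 9 tested. The most abundant gene of a list was taken over all 10 libraries and need not lead within each form of culture. The genes, the lists and the alternatives were chosen with earlier results of these data known. *Bmp10*, *Nog*, *Sostdc1* and *Spi1* were not analysed here. Some genes met by this rule or these lists are not reported here.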

Additional observations from a re-analysis of the deposited data

Results flagged for a closer look

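By Dixon's test within each form of culture, 1 library stood apart in 7 of 90 sets of values. About 1 in 20, or 4.5, would do so by chance if the sets were independent and the libraries of a group alike. Neither holds, since the sets share libraries that differ in named lab or form close pairs. The 7 are therefore not weighed against this number. None of the 7 was a value of the 10 genes chosen. In the flat cultures, flat culture 3 was highest in *Tcf3*, at 167 RPM against 90.3 RPM in the next highest, in *Fos*, at 436 against 79.8 RPM, in *Fosb*, at 284 against 19.6 RPM, and in *Atf3*, at 31.5 against 3.8 RPM. *Smad4* was lowest in flat culture 4, at 66 RPM against 75.7 RPM in the next lowest. Among the reaggregates, *Ccna2* was highest in reaggregate 6, at 27.1 RPM against 19.4 RPM, and *Aurkb* was lowest in reaggregate 3, at 5.44 RPM against 9.22 RPM. The cause of these values was not tested.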

How the results depend on the processing

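Over 22 alternatives to the comparison of reaggregates with flat cultures, *Bmp4* (−2.36 to −2.03, highest limma adjusted p = 0.0091) and *Id1* (−1.50 to −1.34, highest adjusted p = 0.012) were called in each. *Id2* (−1.31 to −0.75) lost its call in 9 and *Id4* (−3.06 to −0.88) in 4, and *Smad6* and *Smad7* turned from −0.88 and −0.89 to 0.05 and 0.00 against flat cultures 1 and 3. Without the filter on low values *Id2* kept −1.08 with an adjusted p of 0.0508.

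Up-regulated genes numbered 1239 with all libraries, 277 with only the reaggregates with IL-3, 345 with only those without it, 627 against flat cultures 1 and 3, 2579 against flat cultures 2 and 4, 321 with consecutive reaggregates averaged, and 766 (without flat culture 4) to 2121 (without flat culture 3) with 1 library left out. Down-regulated genes numbered 1106, and 360, 474, 1775 and 429 with IL-3, without IL-3, against flat cultures 2 and 4, and averaged. Of the 9 genes, 2 were down-regulated in each of the settings with IL-3 only, without IL-3 only and averaged. Of all calls 52.8% were up-regulated, 49% to 54.5% under other pseudocounts, filters and scalings, 46.6% to 58.2% with 1 library left out, 37.5% against flat cultures 1 and 3 (1044 genes down), 59.2% against flat cultures 2 and 4, 42.1% to 43.5% in the settings with 3 reaggregate samples, and 62% with the replicate number as a block.

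The labels do not say that replicate numbers pair the samples, and the main fit did not pair them. Deviations of same-numbered libraries from their group means correlated by 0.17, −0.16, −0.12 and 0.19 across genes. Not every library correlated best with its own number. Close reaggregates and the named lab also shape these correlations, so they cannot decide whether the numbers pair samples. With the replicate number as a block, up-regulated genes numbered 1884, and among the 9 genes 3 kept their call: *Bmp4* (−2.27), *Id1* (−1.34) and *Id4* (−1.95).

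Between the pairs of flat cultures 965 genes were called, 166 without the filter, 2348 in a fit of all 10 libraries with 3 groups, and 0 with any flat culture left out. Of the 9 genes 2 were called, and 0, 4 and 0 in these settings, the 4 being *Bmpr1a*, *Id4*, *Smad6* and *Smad7*. *Smad6* was also called with a filter of 1 RPM in at least 4 libraries (1.85, adjusted p = 0.02099), with median-ratio scaling (2.03, adjusted p = 0.04381) and with quantile normalization (2.03, adjusted p = 0.01796), where the median of all genes moved from −0.17 to −0.02 and 0.05. *Id1* turned from −0.15 to 0.04 with median-ratio scaling and ran from −0.32 to 0.02 with flat cultures left out.

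Without the filter the adipocyte markers called down-regulated went from 3 to 0, the stromal markers called up-regulated from 5 to 3, the antagonists from 3 to 2 up-regulated and from 2 to 0 down-regulated, and the other BMP ligands from 1 to 0. With a filter of 1 RPM in at least 4 libraries *Bmp8a* and *Chrdl1* were not tested. With a pseudocount of 1 neither *Bmp8a* (0.76) nor *Chrdl1* (−0.73) reached 2-fold, and with a pseudocount of 0.1 the ligands called numbered 2. With quantile normalization *Fstl1* lost its call (adjusted p = 0.07174) and 1 osteoblast marker gained one. Against flat cultures 1 and 3, with consecutive reaggregates averaged, and with only the reaggregates with or only those without IL-3, 0 adipocyte markers were called down-regulated, 0 other ligands and 0 other receptors up-regulated, and 0 other SMADs and 0 other target genes down-regulated. In each of these 4 settings 1 antagonist was up-regulated and 0 were down-regulated, and immediate early genes up-regulated went from 6 to 3, with *Fos*, *Fosb* and *Egr2* lost. In the last 3 settings SMAD regulators up-regulated went from 1 to 0 and stromal markers up-regulated from 5 to 2, and *Mki67* and *Top2a* were not called. *Acvr1*, *Smad9*, *Ski* and *Atoh8* then had adjusted p of 0.0552 to 0.09669. *Mki67* was also lost without the filter and with the block, and *Top2a* against flat cultures 2 and 4 (−0.97). *Tcf4* and *Bmper* kept their calls in every setting.

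For IL-3 no gene was called in any setting. With single reaggregates left out, the differences crossed 0 for *Id2* (−0.28 to 0.37), *Id3* (−0.21 to 0.07), *Id4* (−0.42 to 0.07), *Bmpr1a* (−0.05 to 0.16), *Bmpr2* (−0.01 to 0.20), *Smad6* (−0.22 to 0.25) and *Smad7* (−0.27 to 0.23), and ran from −0.35 to −0.07 for *Bmp4* and from −0.27 to −0.02 for *Id1*. The causes of these changes were not tested.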
